A study of Mus musculus with 8 samples.

Results

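The genes described here encode 3 receptors for fibroblast growth factors (FGFs), Fgfr1, Fgfr2 and Fgfr3, 3 of their ligands, Fgf2, Fgf7 and Fgf18, and 4 feedback inhibitors of the signal, Spry1, Spry2, Spry4 and Dusp6. They were taken from the table by symbol, each symbol had 1 identifier there, and they make up 10 of the 15880 genes listed. The cells came from the crushed, collagenase-treated bones of newborn Nes-Gfp heterozygous mice on a C57BL/6 background, collected on postnatal day 1, and each library was made from a pool of 3 pups. In these mice regulatory elements of the rat nestin gene drive GFP, so that the transgene and not the nestin protein sets the GFP gate. Cells without CD45, CD31 and Ter119, which mark blood, endothelial and erythroid cells, were divided by GFP and by surface Pdgfra, a receptor for platelet-derived growth factor found on many mesenchymal cells. This gave GFP+ Pdgfra+, GFP- Pdgfra+, GFP+ Pdgfra- and GFP- Pdgfra- cells, with 15000 to 80000 cells per sample and 2 libraries per population, 8 in all.

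Most FGFs are secreted proteins that bind receptor tyrosine kinases together with heparan sulphate chains on the cell surface. The activated receptors signal through Ras to the kinase ERK, among other routes, and this signal switches on genes of the Sprouty family and Dusp6, a phosphatase that inactivates ERK, which in turn dampen it. In the skeleton the pathway is known for its roles in the growth plate, in bone formation and in the closure of the skull sutures.

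The level of a gene is its normalized value, that is, 0.5 added to its reads and the sum given per 1000000 of the effective library size. Reads on genes summed to between 3221217 and 5302762 per library, and 3 reads, taken here as the floor, correspond to a value of 0.825 to 1.04. Differences between populations come from 1 limma fit to log2(value + 1) of the 8 libraries. At low values this transformation shrinks a change. A gene is called where the p-value adjusted over all 15880 genes is at most 0.05. The exact permutation test (two-sided) of 2 v 2 libraries has a smallest p of 0.333, so the limma p-values depend on variances shrunk towards those of other genes. Of the comparisons, GFP+ Pdgfra+ against GFP- Pdgfra+ cells and GFP+ Pdgfra- against GFP- Pdgfra- cells ask what goes with GFP, and GFP+ Pdgfra+ against GFP+ Pdgfra- cells and GFP- Pdgfra+ against GFP- Pdgfra- cells ask what goes with Pdgfra. Each population enters more than 1 comparison, so the comparisons share libraries.

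The gate for Pdgfra was matched by its transcript, whose value was 733 and 754 in the libraries of GFP+ Pdgfra+ cells and 839 and 794 in GFP- Pdgfra+ cells, against 18.1 and 10.4 in GFP+ Pdgfra- and 3.30 and 4.36 in GFP- Pdgfra- cells. Transcripts of the endogenous Nes gene stood at 57.6 and 72.0 in GFP+ Pdgfra+ cells, 27.4 and 47.1 in GFP- Pdgfra+ cells, 149 and 176 in GFP+ Pdgfra- cells and 3.59 and 9.08 in GFP- Pdgfra- cells. The GFP- Pdgfra- population stood apart from the others in composition. Its summed value of 7 erythroid genes was 12083 and 18991, led by Hbb-b1, a beta globin, at 4362 and 7619, although Ter119-positive cells had been gated out. In the other libraries this sum lay at 40.7 and 41.5 (GFP+ Pdgfra+), 50.05 and 37.6 (GFP- Pdgfra+) and 149.7 and 73.2 (GFP+ Pdgfra-), with Epb4.2 at the floor in GFP- Pdgfra+ cells. Mitochondrial genes took 36.9% and 39.1% of the reads in GFP- Pdgfra- cells, against 13.0% and 13.7% in GFP+ Pdgfra+, 14.4% and 14.5% in GFP- Pdgfra+ and 24.2% and 22.2% in GFP+ Pdgfra- cells. All comparisons with GFP- Pdgfra- cells carry this difference in composition, and its part in the results was not tested. In bulk samples such as these, fewer cells of a type and less RNA per cell cannot be told apart.

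**Figure D1:**
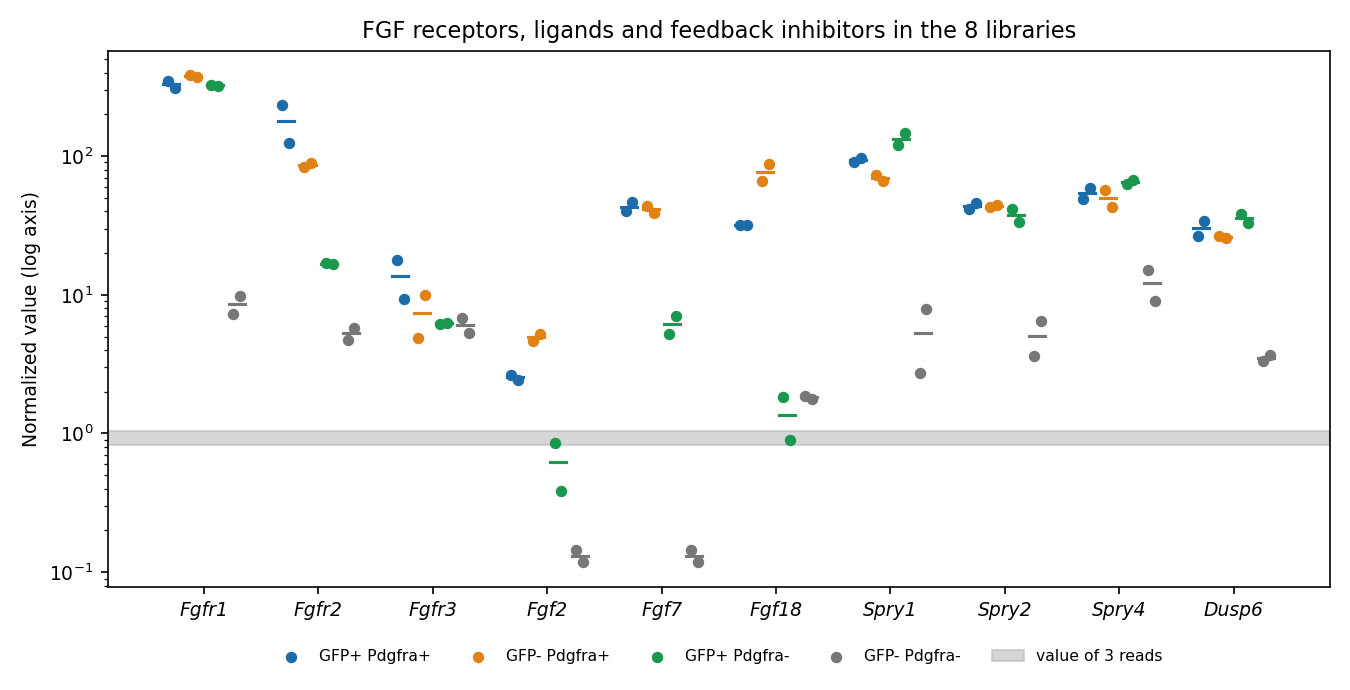
Normalized value (log axis) of the 10 genes in each of the 8 libraries, with points for libraries, short lines for the mean of a population and a grey band for the value of 3 reads. Fgfr1 sits between 309 and 383 in 3 populations and below 10 in GFP- Pdgfra- cells, and Fgf2 and Fgf7 fall below the band in both libraries of GFP- Pdgfra- cells, where no read was counted.

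Fgfr1 (ENSMUSG00000031565, chr8:26624126-26686186, plus strand, build NCBIM37) encodes the receptor of broadest expression in mesenchyme. Its value was 348 and 309 in GFP+ Pdgfra+ cells, 383 and 373 in GFP- Pdgfra+ cells, 327 and 322 in GFP+ Pdgfra- cells and 7.32 and 9.79 in GFP- Pdgfra- cells. Fgfr1 was high and nearly level in 3 populations and low in both libraries of the fourth. By mean the order was GFP- Pdgfra+, GFP+ Pdgfra+, GFP+ Pdgfra- and GFP- Pdgfra-, and the libraries of GFP+ Pdgfra+ and GFP+ Pdgfra- cells overlapped. In Pdgfra- cells Fgfr1 was 38.0-fold higher with GFP (log2 fold change 5.10, standard error 0.15, adjusted p = 2.77e-10, limma), and in GFP- cells it was 44.2-fold higher with Pdgfra (log2 fold change 5.32, standard error 0.15, adjusted p = 8.90e-11, limma). Between the Pdgfra+ populations Fgfr1 was not called, with a log2 difference of -0.21 and a 95% interval of -0.53 to 0.12 (adjusted p = 0.519, limma). Between the GFP+ populations the interval of its log2 difference was -0.31 to 0.34 (adjusted p = 0.966, limma), around a value of 0.01 that turned to -0.01 when libraries were centred on their median and lay at -0.07 to 0.10 with 1 library left out. Exons of Fgfr1 overlap those of Gm16159 on the opposite strand, which had a value of at most 4.41 in any library. The libraries do not mark strand, so reads of that stretch cannot be assigned by strand. Exons of Fgfr1 also overlap those of a second gene model of the same symbol on the same strand (ENSMUSG00000091895). That model is not in the table, so reads shared by both models are uncertain.

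Fgfr2 (ENSMUSG00000030849, chr7:137305965-140315033, minus strand), which encodes a receptor active in osteoblasts and in epithelia, fell in steps over the populations. Its value was 232 and 125 in GFP+ Pdgfra+ cells, 83.6 and 89.0 in GFP- Pdgfra+ cells, 16.9 and 16.6 in GFP+ Pdgfra- cells and 4.74 and 5.78 in GFP- Pdgfra- cells. No neighbours in this order overlapped, but the libraries of GFP+ Pdgfra+ cells lay far apart, with a mean of 178 ± 76.0 (SD, n = 2). In GFP+ cells Fgfr2 was 10.7-fold higher with Pdgfra (log2 fold change 3.27, standard error 0.26, adjusted p = 4.25e-06, limma), and in GFP- cells 16.4-fold higher (log2 fold change 3.81, standard error 0.26, adjusted p = 1.05e-07, limma). With GFP it was 3.18-fold higher in Pdgfra- cells (log2 fold change 1.51, standard error 0.26, adjusted p = 3.78e-04, limma). In Pdgfra+ cells the mean of Fgfr2 was 2.07-fold higher with GFP, a log2 difference of 0.97 with a 95% interval of 0.40 to 1.54, which was not called (adjusted p = 0.0543, limma). The result depended on the libraries of GFP+ Pdgfra+ cells. Without replicate 1 the log2 fold change was 0.53 (adjusted p = 0.323), and without replicate 2 the adjusted p was 0.0133 (log2 fold change 1.42). The difference was also called by edgeR on the recovered reads (adjusted p = 0.0114), by voom (0.0163) and with libraries centred on their median (0.0476), and over all alternatives the adjusted p ranged over 0.0114 to 0.323.

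Osteoblast markers were highest in the same libraries as Fgfr2. The 8 genes of that list summed to 55076 and 41027 in GFP+ Pdgfra+ cells and 17049 and 15519.7 in GFP- Pdgfra+ cells. In GFP+ Pdgfra- cells they summed to 3422 and 2848, and in GFP- Pdgfra- cells to 472 and 602. Most of each sum was Col1a1, a collagen of bone. It stood at 51184 and 38311 in GFP+ Pdgfra+ cells and 16841 and 15352 in GFP- Pdgfra+ cells. In GFP+ Pdgfra- cells it was 3099 and 2562, and in GFP- Pdgfra- cells 435 and 560. The order of the sum over populations and replicates is therefore that of Col1a1. Between replicates the sum and Fgfr2 rose together in all populations but GFP- Pdgfra+ cells. All 8 markers were higher with GFP in Pdgfra+ cells by limma, as were 3.22% of all genes, and Bglap was at the floor in GFP- Pdgfra- cells. The part of these markers in the difference in Fgfr2 was not tested. Exons of Fgfr2 overlap those of Ctbp2 on the same strand, whose value was 28.0 and 39.5 in GFP+ Pdgfra+ cells, 20.8 and 26.0 in GFP- Pdgfra+ cells, 28.5 and 34.3 in GFP+ Pdgfra- cells and 12.2 and 7.43 in GFP- Pdgfra- cells. In both Pdgfra- populations Ctbp2 lay above Fgfr2, so the low values of Fgfr2 there, and the folds against them, are uncertain by the reads of the shared stretch. The span printed above is that of the gene model, which also covers other genes, such as Tacc2, Plekha1 and Oat. Its exon length of 7796 bases includes the stretch shared with Ctbp2, so the values of Fgfr2 per kb are uncertain as well.

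Fgfr3 (ENSMUSG00000054252, chr5:34064373-34079716, plus strand), which encodes the receptor known for restraining growth plate chondrocytes, was low everywhere. Its value was 17.8 and 9.34 in GFP+ Pdgfra+ cells, 4.92 and 9.95 in GFP- Pdgfra+ cells, 6.19 and 6.30 in GFP+ Pdgfra- cells and 6.75 and 5.31 in GFP- Pdgfra- cells. Neighbouring populations in the order of means overlapped throughout. Fgfr3 was called in none of the comparisons by limma, edgeR or voom. For GFP in Pdgfra+ cells the interval of its log2 difference was -0.10 to 1.69 (adjusted p = 0.338, limma), and for Pdgfra in GFP+ cells 0.05 to 1.84 (adjusted p = 0.121, unadjusted p = 0.0403, limma). Against GFP- Pdgfra- cells the intervals were -0.84 to 0.95 for GFP in Pdgfra- cells and -0.69 to 1.099 for Pdgfra in GFP- cells, and both differences turned negative with libraries centred on their median. The 9 measured chondrocyte markers summed to 671 and 2116 in GFP- Pdgfra+ cells, led by Col2a1, the collagen of cartilage, at 273 and 1498. Their sum was 362 and 441 in GFP+ Pdgfra+, 115 and 169.9 in GFP+ Pdgfra- and 619 and 1047 in GFP- Pdgfra- cells, with Matn1 at the floor in all but GFP- Pdgfra- cells, and its part in the level of Fgfr3 was not tested. Between replicates the sum and Fgfr3 rose together in GFP- Pdgfra+ and GFP+ Pdgfra- cells and in opposite directions in GFP+ Pdgfra+ and GFP- Pdgfra- cells.

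Per kb of exon, Fgfr1 was the most abundant of the 3 receptors in every library of the first 3 populations. The mean value per kb was 40.7 for Fgfr1, 22.9 for Fgfr2 and 1.97 for Fgfr3 in GFP+ Pdgfra+ cells, and 46.9, 11.1 and 1.08 in GFP- Pdgfra+ cells. In GFP- Pdgfra- cells it was 1.06, 0.674 and 0.876, and there Fgfr3 lay above Fgfr1 in replicate 1 (0.981 against 0.909) and below it in replicate 2 (0.771 against 1.21). Of the summed values per kb of Fgfr1 to Fgfr4, Fgfr1 took 54.5% and 66.0% in the libraries of GFP+ Pdgfra+ cells, 80.5% and 77.8% in GFP- Pdgfra+ cells and 31.1% and 29.5% in GFP+ Pdgfra- cells. Fgfr2 took 37.6% and 27.6% in GFP+ Pdgfra+ cells, 18.1% and 19.2% in GFP- Pdgfra+ cells and 1.66% and 1.57% in GFP+ Pdgfra- cells. The remainder in GFP+ Pdgfra- cells was mostly Fgfr4, the receptor outside the set, at 66.5% and 68.3%. In GFP- Pdgfra- cells the sum over the 4 receptors was only 3.27 and 3.02 per kb, of which Fgfr1 took 27.8% and 40.1%, Fgfr2 18.6% and 24.5%, Fgfr3 30.0% and 25.5% and Fgfr4 23.5% and 9.87%, shares that rest on few reads.

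**Figure D2:**
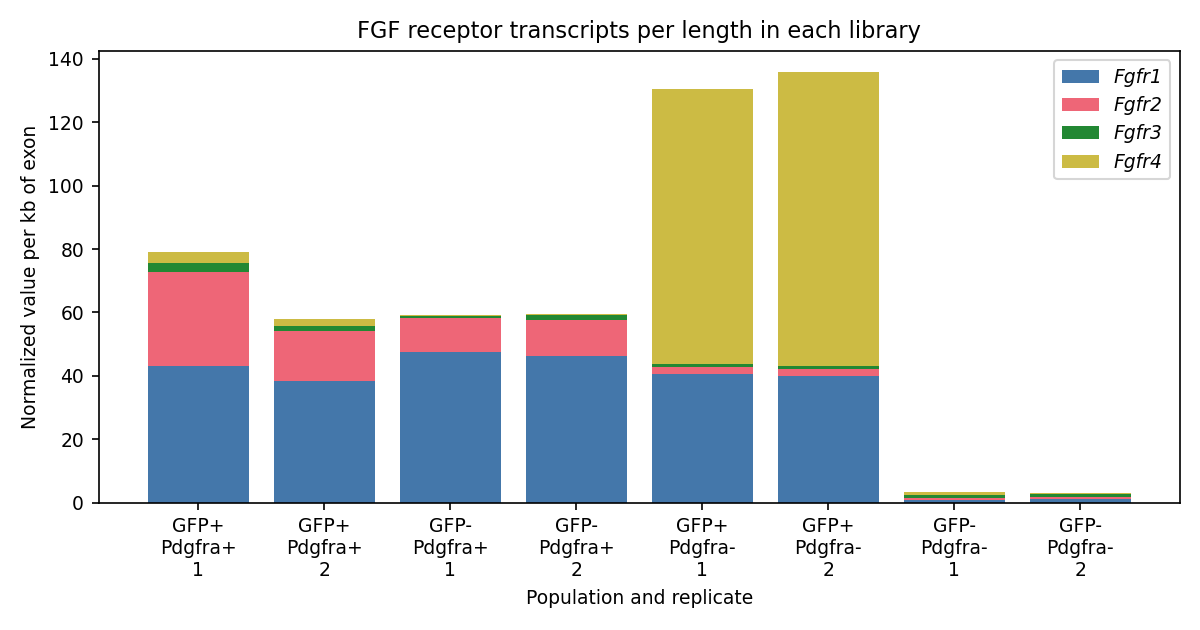
Normalized value per kb of exon of Fgfr1, Fgfr2, Fgfr3 and Fgfr4, stacked for each library of the 4 populations. Fgfr1 is of like height in the first 6 bars, Fgfr2 is largest in GFP+ Pdgfra+ cells, and Fgfr4 makes up 66.5% and 68.3% of the bars of GFP+ Pdgfra- cells.

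Fgfr4, from the list of other receptors and co-receptors, had values of 12.8 and 8.48 in GFP+ Pdgfra+ cells, 0.378 and 1.34 in GFP- Pdgfra+ cells, 308 and 329 in GFP+ Pdgfra- cells and 2.73 and 1.06 in GFP- Pdgfra- cells. It was higher with GFP in Pdgfra- cells (log2 fold change 6.85, standard error 0.39, adjusted p = 3.20e-08, limma; 7.53 by edgeR on the recovered reads) and lower with Pdgfra in GFP+ cells (log2 fold change -4.80, standard error 0.39, adjusted p = 4.39e-06, limma). Skeletal muscle markers were high in the same libraries as Fgfr4. The 10 genes summed to 879 and 901 in GFP+ Pdgfra- cells, led by Pax7, a factor of muscle progenitors, at 296 and 336, against 79.5 and 75.6 in GFP+ Pdgfra+, 40.8 and 40.1 in GFP- Pdgfra+ and 28.4 and 15.3 in GFP- Pdgfra- cells. Pax7, Myf5, Myod1 and Myog were at the floor in GFP- Pdgfra+ cells, and Myf5, Myod1 and Ckm in GFP- Pdgfra- cells. The part of these markers in the level of Fgfr4 was not tested. Of 5 measured genes on the list of Fgfr4, 1 was higher and 0 lower with GFP in Pdgfra+ cells by limma, where edgeR and voom called the same and 1 was higher and 0 lower at an unadjusted p under 0.05, against 3.22% and 2.13% of all genes. With Pdgfra in GFP- cells 1, Fgfrl1, was higher (adjusted p = 0.0358, limma) and 0 lower, against 32.9% and 26.8% of all genes. That call was lost without either library of GFP- Pdgfra+ cells and without replicate 2 of GFP- Pdgfra- cells. Over all alternatives its adjusted p ranged over 0.0214 to 0.457. The highest value did not come from leaving out a library, so a change of processing lost the call as well. With GFP in Pdgfra- cells 1 was higher and 1 lower, and with Pdgfra in GFP+ cells 1 and 1, against 30.1% and 23.6% and 13.1% and 11.1% of all genes. In both Fgfrl1 was the other called gene, lost without replicate 1 of either population in the first (0.189 to 0.191, over a range of 0.00197 to 0.191), by voom (0.0506) and with only the compared populations in the fit (0.0786). In the second it was lost without any library but replicate 2 of GFP+ Pdgfra- cells (0.0514 to 0.163, over a range of 0.0218 to 0.163) and with only the compared populations in the fit (0.0528).

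Among the ligands, Fgf18 (ENSMUSG00000057967, chr11:33017430-33047400, minus strand), which acts on chondrocytes and osteoblasts, was highest in GFP- Pdgfra+ cells. Its value was 66.4 and 87.8 there, 31.9 and 32.1 in GFP+ Pdgfra+ cells, 1.82 and 0.900 in GFP+ Pdgfra- cells and 1.87 and 1.77 in GFP- Pdgfra- cells. Both Pdgfra+ populations were separate from each other and from the Pdgfra- populations, which overlapped. With Pdgfra, Fgf18 was 23.5-fold higher in GFP+ cells (log2 fold change 3.83, standard error 0.32, adjusted p = 5.58e-06, limma) and 42.4-fold higher in GFP- cells (log2 fold change 4.78, standard error 0.32, adjusted p = 8.35e-08, limma). By edgeR on the recovered reads these log2 fold changes were 4.64 and 5.49, and Fgf18 had 7 and 3 reads in GFP+ Pdgfra- cells and 6 and 7 in GFP- Pdgfra- cells. In Pdgfra- cells the interval of the log2 difference with GFP was -0.98 to 0.41 (adjusted p = 0.484, limma).

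Fgf18 was also the only one of the 10 genes called between the Pdgfra+ populations by limma. It was 2.41-fold lower with GFP, in both libraries (log2 fold change -1.23, standard error 0.32, adjusted p = 0.0471, limma). The adjusted p lay close to the threshold. It was lost with the replicate block (adjusted p = 0.0527), without a mean-variance trend (0.0530), with a pseudocount of 0.1 (0.130) and when any 1 of the 4 libraries was left out (0.151 to 0.326), while edgeR on the recovered reads gave 0.00396. The range over all alternatives was 0.00160 to 0.326. Tendon and perichondrial markers were high in the same libraries as Fgf18. The 5 genes summed to 2835 and 2738 in GFP- Pdgfra+ cells, led by Thbs4 at 2265 and 2229, against 514 and 552 in GFP+ Pdgfra+, 17.4 and 15.8 in GFP+ Pdgfra- and 75.1 and 83.4 in GFP- Pdgfra- cells. All 5 were lower with GFP in Pdgfra+ cells by limma, as were 2.13% of all genes, Scx was at the floor in GFP+ Pdgfra+ and GFP- Pdgfra- cells and Kera in GFP+ Pdgfra- cells, and the part of these markers in the level of Fgf18 was not tested.

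Fgf7 (ENSMUSG00000027208, chr2:125860394-125916921, plus strand), a mesenchymal ligand that acts on epithelia through a splice form of Fgfr2, was highest in the Pdgfra+ populations. Its value was 39.9 and 46.4 in GFP+ Pdgfra+ cells, 44.0 and 39.1 in GFP- Pdgfra+ cells and 5.22 and 7.07 in GFP+ Pdgfra- cells, and no read was counted in either library of GFP- Pdgfra- cells. The Pdgfra+ populations overlapped, and both lay above GFP+ Pdgfra- cells. In GFP+ cells Fgf7 was 7.02-fold higher with Pdgfra (log2 fold change 2.64, standard error 0.30, adjusted p = 6.58e-05, limma). Against the floor of 3 reads per library in GFP- Pdgfra- cells it was at least 45.4-fold higher in GFP- Pdgfra+ cells (adjusted p = 2.43e-08, limma) and at least 6.72-fold higher in GFP+ Pdgfra- cells (adjusted p = 1.34e-05, limma). Fitted log2 values for these differences depend on the pseudocount and are not bounds. Between the Pdgfra+ populations the interval of the log2 difference was -0.61 to 0.72 (adjusted p = 0.955, limma), around a value of 0.05 whose sign turned when some single libraries were left out (-0.05 to 0.16).

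Fgf2 (ENSMUSG00000037225, chr3:37211441-37304299, plus strand), a ligand that binds strongly to heparan sulphate, had the lowest values of the 10 genes before division by exon length. In GFP- Pdgfra- cells Fgf7 was level with it, as neither had a read. Per kb of exon, Fgf2 lay above Fgfr3 in GFP- Pdgfra+ cells (2.74 against 1.08). It was counted with 9 and 8 reads in GFP+ Pdgfra+ cells, 18 and 17 in GFP- Pdgfra+ cells, 3 and 1 in GFP+ Pdgfra- cells and 0 and 0 in GFP- Pdgfra- cells, which are values of 2.62 and 2.44, 4.66 and 5.197 and 0.850 and 0.386 in the first 3. The populations did not overlap, and both Pdgfra- populations were at the floor. In GFP- cells Fgf2 was at least 5.39-fold higher with Pdgfra, against 3 reads per library (adjusted p = 1.19e-04, limma). In GFP+ cells the ratio with Pdgfra was 4.79, with an exact interval of 1.56 to 19.6 that covers counting error only, and Fgf2 was called (log2 fold change 1.14, standard error 0.37, adjusted p = 0.0407, limma). That call was lost with the replicate block (adjusted p = 0.0510), with a pseudocount of 0.1 (0.0643), with only the compared populations in the fit (0.0776), by edgeR (0.127) and voom (0.0727) and when any 1 of the 4 libraries was left out (0.0727 to 0.192), over a range of 0.0110 to 0.192. For GFP in Pdgfra+ cells the interval of its log2 difference was -1.55 to 0.05 (adjusted p = 0.310, limma). Exons of Fgf2 overlap those of Nudt6 and Cetn4 on the opposite strand and of Bbs12 on the same strand. Nudt6 had values of 2.35 and 7.62 in GFP+ Pdgfra+ cells and 17.8 and 9.65 in GFP- Pdgfra+ cells, of the size of Fgf2 or above, so the reads of Fgf2 are uncertain.

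Per kb of exon, Fgf18 was the most abundant of the 3 ligands in the Pdgfra+ populations. Its mean value per kb was 64.95 in GFP- Pdgfra+ cells and 26.9 in GFP+ Pdgfra+ cells, against 12.8 and 13.3 for Fgf7 and 2.74 and 1.41 for Fgf2. In GFP+ Pdgfra- cells Fgf7 was at 1.89 per kb and Fgf18 at 1.15, both low.

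All 4 feedback inhibitors were lowest in GFP- Pdgfra- cells. Spry1 (ENSMUSG00000037211, chr3:37538869-37543520, plus strand), a Sprouty protein that restrains signalling below receptor tyrosine kinases, had values of 119.8 and 147 in GFP+ Pdgfra- cells, 91.0 and 97.0 in GFP+ Pdgfra+ cells, 72.5 and 66.1 in GFP- Pdgfra+ cells and 2.73 and 7.90 in GFP- Pdgfra- cells. These populations did not overlap in Spry1, and GFP+ Pdgfra- cells were highest. In Pdgfra- cells Spry1 was 25.1-fold higher with GFP (log2 fold change 4.54, standard error 0.31, adjusted p = 1.70e-07, limma), and in GFP- cells 13.0-fold higher with Pdgfra (log2 fold change 3.61, standard error 0.31, adjusted p = 8.44e-07, limma). The libraries of GFP- Pdgfra- cells differed in Spry1, so the log2 fold change with GFP was 3.91 without replicate 1 of GFP- Pdgfra- cells and 5.16 without replicate 2, and that with Pdgfra was 2.98 and 4.24. Between the GFP+ populations the log2 difference was -0.49 with an interval of -1.18 to 0.19 (adjusted p = 0.294, limma), which was called by voom (0.0443) and with only the compared populations in the fit (0.0477), over a range of 0.0443 to 0.640. With GFP in Pdgfra+ cells the interval was -0.25 to 1.12 (adjusted p = 0.515, limma).

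Spry2 (ENSMUSG00000022114, chr14:106291166-106296036, minus strand), a second Sprouty gene, was the most even of the 3 Sprouty genes over GFP+ Pdgfra+, GFP- Pdgfra+ and GFP+ Pdgfra- cells. Its value was 41.3 and 45.6 in GFP+ Pdgfra+ cells, 43.0 and 44.4 in GFP- Pdgfra+ cells, 41.6 and 33.3 in GFP+ Pdgfra- cells and 3.59 and 6.48 in GFP- Pdgfra- cells. The first 3 populations overlapped in turn, and only GFP- Pdgfra- cells were separate. Spry2 was 7.44-fold higher with GFP in Pdgfra- cells (log2 fold change 2.71, standard error 0.26, adjusted p = 2.79e-06, limma) and 8.67-fold higher with Pdgfra in GFP- cells (log2 fold change 2.93, standard error 0.26, adjusted p = 9.84e-07, limma). In the other comparisons the intervals were -0.57 to 0.55 for GFP in Pdgfra+ cells, around a value of -0.01 whose sign turned when some single libraries were left out (-0.08 to 0.06), and -0.35 to 0.78 for Pdgfra in GFP+ cells.

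Spry4 (ENSMUSG00000024427) also encodes a Sprouty protein. Its value was 63.0 and 67.5 in GFP+ Pdgfra- cells, 48.7 and 58.8 in GFP+ Pdgfra+ cells, 56.9 and 42.6 in GFP- Pdgfra+ cells and 15.1 and 9.08 in GFP- Pdgfra- cells. The Pdgfra+ populations overlapped in Spry4, and GFP- Pdgfra- cells were separate from all others, by smaller folds than for the other inhibitors. It was 5.40-fold higher with GFP in Pdgfra- cells (log2 fold change 2.38, standard error 0.24, adjusted p = 5.19e-06, limma) and 4.12-fold higher with Pdgfra in GFP- cells (log2 fold change 1.98, standard error 0.24, adjusted p = 1.89e-05, limma). For GFP in Pdgfra+ cells the interval of Spry4 was -0.41 to 0.65, around 0.12 with a sign that turned when some single libraries were left out (-0.09 to 0.32), and for Pdgfra in GFP+ cells it was -0.81 to 0.25.

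Dusp6 (ENSMUSG00000019960, chr10:98725865-98730122, plus strand), the ERK phosphatase, had values of 26.7 and 34.1 in GFP+ Pdgfra+ cells, 26.3 and 25.7 in GFP- Pdgfra+ cells, 38.2 and 33.1 in GFP+ Pdgfra- cells and 3.30 and 3.66 in GFP- Pdgfra- cells. The GFP+ populations overlapped in Dusp6, GFP- Pdgfra+ cells lay just below them and GFP- Pdgfra- cells far below. In Pdgfra- cells Dusp6 was 10.2-fold higher with GFP (log2 fold change 3.03, standard error 0.24, adjusted p = 6.16e-07, limma), and in GFP- cells 7.48-fold higher with Pdgfra (log2 fold change 2.59, standard error 0.24, adjusted p = 1.73e-06, limma). The interval of Dusp6 was -0.33 to 0.74 for GFP in Pdgfra+ cells (adjusted p = 0.724, limma) and -0.76 to 0.30 for Pdgfra in GFP+ cells (adjusted p = 0.542, limma).

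Per kb of exon, Spry1 was the most abundant of the 4 inhibitors in the 3 populations that expressed them. The mean value of Spry1 per kb was 45.9 in GFP+ Pdgfra- cells, 32.4 in GFP+ Pdgfra+ cells and 23.8 in GFP- Pdgfra+ cells. Spry2 followed at 18.0, 20.8 and 21.0 per kb, Spry4 at 14.2, 11.7 and 10.8, and Dusp6 at 12.8, 10.9 and 9.31. Immediate-early genes, some of which respond to ERK and to cell handling alike, were highest where Spry1, Spry4 and Dusp6 had their highest means. The 12 genes of that list summed to 5479.8 and 6469 in GFP+ Pdgfra- cells, 2521 and 2016 in GFP+ Pdgfra+, 1561 and 1074 in GFP- Pdgfra+ and 660.0 and 836 in GFP- Pdgfra- cells, with Egr1 as the most abundant (3295 and 3811 in GFP+ Pdgfra- cells). The part of these genes in the levels of the inhibitors was not tested.

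Counted over the set, the comparisons with GFP- Pdgfra- cells held most of the calls. With Pdgfra in GFP- cells, 9 of the 10 genes were higher and 0 lower by limma, all but Fgfr3, where 32.9% of the 15880 genes were higher and 26.8% lower. With GFP in Pdgfra- cells 7 were higher and 0 lower, against 30.1% and 23.6% of all genes. The genes without a call there were Fgfr3, Fgf2 and Fgf18. No member was lower at an unadjusted p under 0.05 in either comparison, nor lower by edgeR or voom, which called the same numbers as higher. The median log2 difference over the set was 3.27 with Pdgfra in GFP- cells and 2.51 with GFP in Pdgfra- cells (2.71 with Fgf7 at its bound and Fgf2 left out, and 3.27 in the first comparison with Fgf2 and Fgf7 at their bounds), against 0.17 and 0.15 over all genes.

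Away from GFP- Pdgfra- cells fewer of the genes were called. With Pdgfra in GFP+ cells 4 were higher, Fgf18, Fgfr2, Fgf7 and Fgf2, and 0 lower by limma, where 13.1% of all genes were higher and 11.1% lower. EdgeR called 3 of the members higher and 0 lower, voom 3 higher and 1 lower, and at an unadjusted p under 0.05 limma had 5 higher and 0 lower. With GFP in Pdgfra+ cells 0 members were higher and 1, Fgf18, was lower, against 3.22% and 2.13% of all genes. There, 1 member was higher and 1 lower at an unadjusted p under 0.05, and the same numbers were called by edgeR and by voom. The median log2 difference of the members was 0.58 with Pdgfra in GFP+ cells and 0.09 with GFP in Pdgfra+ cells, beside -0.02 and 0.00 over all genes.

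The effect of GFP was tested for a difference between Pdgfra+ and Pdgfra- cells with the interaction of the fit. It was called with a negative sign, that is, a smaller effect in Pdgfra+ cells, for 6 of the 10 genes, Fgfr1, Spry1, Dusp6, Spry2, Fgf7 and Spry4, and with a positive sign for 0, where 25.2% of all genes were called negative and 19.1% positive. EdgeR and voom also called 6 negative and 0 positive, and 0 were positive at an unadjusted p under 0.05. For Fgfr2 the interaction had an interval of -1.34 to 0.27 (adjusted p = 0.267, limma) and was called without replicate 1 of GFP+ Pdgfra+ cells (0.0334), over a range of 0.0334 to 0.839. Fgf2 (adjusted p = 0.0704, limma) was called without a mean-variance trend (0.0149), over a range of 0.0149 to 0.233. For Fgf18 the adjusted p was 0.110 and for Fgfr3 0.329 (limma). Centring each library on its median moved the log2 fold change of the median gene by -0.45 for GFP in Pdgfra- cells and by -0.45 for Pdgfra in GFP- cells, and the members called in these comparisons and in the interaction were called under it too.

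**Figure D3:**
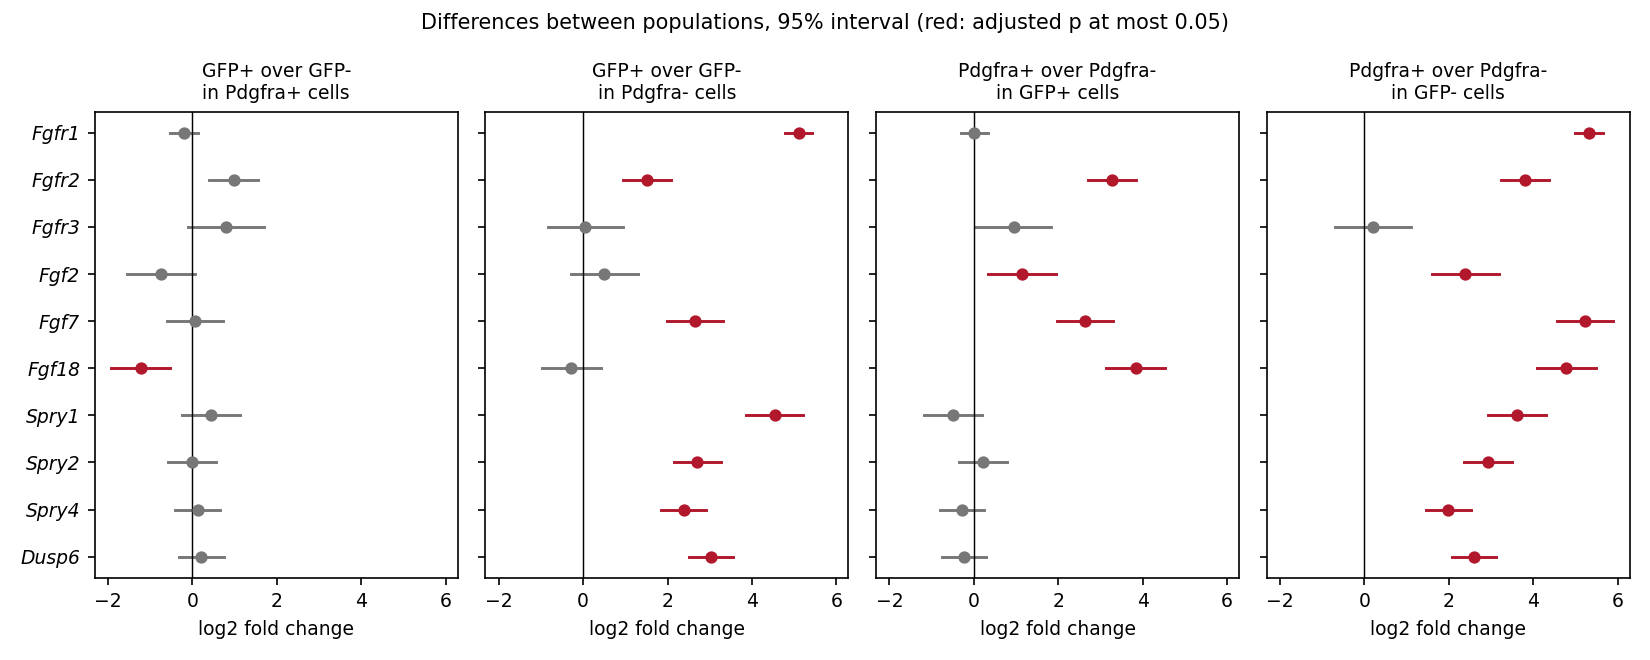
Log2 fold change of the 10 genes on the log2(value + 1) scale in 4 comparisons, with points for the limma estimate, lines for the 95% interval and red for an adjusted p of at most 0.05. With Pdgfra in GFP- cells 9 genes are red and to the right of 0, and with GFP in Pdgfra+ cells only Fgf18, at -1.23, is red, a call lost in several alternatives.

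Other genes of the pathway were taken from lists. Of 19 other genes of the FGF family, 8 were in the table, and 4 of these, Fgf11, Fgf12, Fgf13 and Fgf14, encode intracellular proteins and not secreted ligands. With GFP in Pdgfra+ cells 0 were called higher and 0 lower by limma, 1 was higher and 2 lower at an unadjusted p under 0.05, edgeR called 1 higher and voom 0, where 3.22% of all genes were higher and 2.13% lower. With GFP in Pdgfra- cells 6 of the 8 were higher (30.1% of all genes), with Pdgfra in GFP+ cells 3 were higher and 1 lower (13.1% and 11.1%), and with Pdgfra in GFP- cells 6 were higher (32.9%). Without the 4 intracellular proteins these were 3 higher, 2 higher and 4 higher of 4. Like Fgf7, Fgf10 was higher in Pdgfra+ cells, at 12.3 and 15.1 in GFP+ Pdgfra+ and 25.8 and 21.2 in GFP- Pdgfra+ cells against 4.73 and 3.99 in GFP+ Pdgfra- cells (adjusted p = 0.0109, limma), a call lost without replicate 2 of GFP+ Pdgfra+ cells (0.0658), without replicate 2 of GFP+ Pdgfra- cells (0.0728) and with a pseudocount of 0.1 (0.0548), over a range of 0.00602 to 0.0728. Fgf12 was highest in GFP+ Pdgfra- cells, with 40 and 20 reads against 1 and 2 in GFP+ Pdgfra+ cells. The calls of Fgf1 and Fgf14 with Pdgfra in GFP+ cells were lost when any 1 of the 4 libraries was left out (adjusted p = 0.0597 to 0.172 for Fgf1 and 0.0587 to 0.122 for Fgf14, with ranges over all alternatives of 0.0161 to 0.172 and 0.0198 to 0.122).

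Of 18 genes for heparan sulphate proteoglycans and their enzymes, 16 were higher and 1 lower with Pdgfra in GFP- cells (of all genes 32.9% and 26.8%) and 13 and 1 with GFP in Pdgfra- cells (30.1% and 23.6%). With Pdgfra in GFP+ cells 6 were higher and 1 lower (13.1% and 11.1%), of which Sdc2 lost its call without replicate 1 of GFP+ Pdgfra+ cells and without replicate 2 of GFP+ Pdgfra- cells (adjusted p = 0.0585 to 0.0602, over a range of 7.72e-05 to 0.0602). Between the Pdgfra+ populations 2 were higher and 1 lower with GFP (3.22% and 2.13%), namely Gpc1 (log2 fold change 1.69, adjusted p = 0.00196), Sulf2, which trims sulphate groups from the chains (-1.37, adjusted p = 6.05e-04), and Sdc3 (1.01, adjusted p = 0.0262, limma). The call of Sdc3 was lost without a mean-variance trend (0.114), without replicate 1 of GFP+ Pdgfra+ cells (0.196) and without either library of GFP- Pdgfra+ cells (0.198 and 0.126), over a range of 0.00670 to 0.198. Sulf2, like Fgf18, was higher in GFP- Pdgfra+ than in GFP+ Pdgfra+ cells and higher with Pdgfra in GFP+ cells (1.88, adjusted p = 9.55e-06, limma). Of 16 measured genes that relay the signal to ERK, 0 were called higher and 0 lower with GFP in Pdgfra+ cells by limma. Of all genes 3.22% were higher and 2.13% lower there, so few calls would be found at that share. EdgeR and voom also called 0 and 0, and 1 was higher and 1 lower at an unadjusted p under 0.05. With Pdgfra in GFP+ cells 3 were higher (13.1% of all genes), of which Braf lost its call when any 1 of the 4 libraries was left out (adjusted p = 0.122 to 0.173, over a range of 0.0386 to 0.203). Against GFP- Pdgfra- cells calls went both ways, 4 higher and 4 lower with GFP (30.1% and 23.6% of all genes) and 6 and 5 with Pdgfra (32.9% and 26.8%), and single libraries changed the calls of Frs3 in both (0.0521 to 0.107 without replicate 2 of GFP+ Pdgfra- cells or either library of GFP- Pdgfra- cells, 0.0657 without replicate 1 of GFP- Pdgfra+ cells) and of Map2k2 in the second (0.0552 to 0.0930 without replicate 1 of GFP- Pdgfra+ or of GFP- Pdgfra- cells). The ranges were 0.00327 to 0.107 and 0.00221 to 0.0657 for Frs3 and 4.96e-04 to 0.0930 for Map2k2.

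A further list had 11 measured genes, 8 of them for feedback inhibitors, and Flrt1, Flrt2 and Flrt3 for membrane proteins that bind FGF receptors and are not inhibitors of this kind. Of the 11, 8 were higher and 1 lower with GFP in Pdgfra- cells (30.1% and 23.6% of all genes), and 8 were higher and 0 lower with Pdgfra in GFP- cells by limma (32.9% and 26.8%). In the latter, 8 were higher and 0 lower at an unadjusted p under 0.05, and edgeR called 8 and 0 and voom 7 and 0. All 3 Flrt genes were among the genes called higher in both comparisons, which leaves 5 higher of the 8 inhibitors in each. Il17rd, a membrane protein that restrains FGF signalling, had values of 71.9 and 78.3 in GFP+ Pdgfra+, 125 and 99.3 in GFP- Pdgfra+, 55.2 and 56.2 in GFP+ Pdgfra- and 5.60 and 4.13 in GFP- Pdgfra- cells. Flrt1 was the 1 gene called with GFP in Pdgfra+ cells (adjusted p = 0.0336, limma), lost when any 1 of the 4 libraries was left out (0.0768 to 0.195, over a range of 0.0249 to 0.195), where 3.22% of all genes were higher. The call of Flrt1 was also lost with only the compared populations in the fit, where 0 were higher and 0 lower. For GFP in Pdgfra+ cells edgeR called 1 higher and 0 lower and voom 1 higher and 2 lower. With Pdgfra in GFP+ cells 2 were higher and 1 lower (13.1% and 11.1% of all genes). Of these Dusp4 lost its call without replicate 2 of GFP+ Pdgfra+ cells and without either library of GFP+ Pdgfra- cells (adjusted p = 0.0533 to 0.0688, over a range of 0.00174 to 0.0688), and Flrt2 without replicate 1 of GFP+ Pdgfra- cells (0.0670, over a range of 1.74e-05 to 0.0670), while Dusp7 kept it. Of 10 genes that respond to ERK, 9 for transcription factors and Ccnd1 for a cyclin, 3 were higher with GFP in Pdgfra+ cells (3.22% of all genes), Egr2 (2.05, adjusted p = 0.00114), Fos (adjusted p = 0.00335) and Myc (0.97, adjusted p = 0.00715, limma). The call of Fos was lost without replicate 1 of GFP+ Pdgfra+ cells (0.0509), without replicate 2 of GFP- Pdgfra+ cells (0.0610) and without a mean-variance trend (0.0574), and that of Myc likewise (0.0680, 0.101 and 0.0724). The ranges were 8.38e-04 to 0.0610 for Fos and 0.00434 to 0.101 for Myc. With Pdgfra in GFP+ cells Egr1, Etv5 and Fos were lower (11.1% of all genes), led by Egr1 (-2.01, adjusted p = 4.51e-05, limma), and the call of Etv5 was lost without replicate 1 of GFP+ Pdgfra- cells (0.0525, over a range of 2.31e-04 to 0.0525). Against GFP- Pdgfra- cells most of the 10 were higher, 7 with GFP (30.1% of all genes) and 8 with Pdgfra (32.9%), and 1 and 1 lower (23.6% and 26.8%). Egr1, Etv5 and Fos were higher with Pdgfra in GFP- cells, by 3.02-fold, 2.30-fold and 3.41-fold, and lower with it in GFP+ cells. In GFP- cells the call of Etv4 was lost without replicate 2 of GFP- Pdgfra- cells (0.0829, over a range of 0.00151 to 0.0829). Fos and Egr1 stand on the list of immediate-early genes as well.

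Markers of pericytes and of Schwann cells were highest in GFP+ Pdgfra- cells, as Spry1 and Spry4 were. In GFP+ Pdgfra- cells the 8 pericyte and smooth muscle markers summed to 2029 and 2626, led by Rgs5 at 731 and 1035, against 481 and 394 in GFP+ Pdgfra+, 368 and 382 in GFP- Pdgfra+ and 83.6 and 137 in GFP- Pdgfra- cells. The 8 Schwann cell markers summed to 453 and 421 in GFP+ Pdgfra- cells, led by Erbb3 at 131 and 131, against 107 and 74.7 in GFP+ Pdgfra+, 20.2 and 40.7 in GFP- Pdgfra+ and 24.4 and 40.8 in GFP- Pdgfra- cells, with Sox10, Foxd3 and Cdh19 at the floor in GFP- Pdgfra+ cells and Foxd3 and Cdh19 in GFP- Pdgfra- cells. The 6 endothelial markers summed to 48.6 and 72.7 in GFP+ Pdgfra+, 49.4 and 51.4 in GFP- Pdgfra+, 45.9 and 93.4 in GFP+ Pdgfra- and 31.6 and 121 in GFP- Pdgfra- cells. Tek had the highest mean of these over all libraries, but in GFP- Pdgfra- cells it was only 0.718 and 6.25, and other markers made up the sum, while Emcn and Tie1 were at the floor in GFP- Pdgfra+ cells. The 7 haematopoietic markers summed to 5.39 and 15.4, 20.5 and 13.5, 20.3 and 21.0 and 86.3 and 87.1 in the same order. Lyz2 had the highest mean of these over all libraries, and Cd53 and Coro1a were at the floor in GFP+ Pdgfra+ cells and Ptprc, Cd53 and Csf1r in GFP- Pdgfra+ cells. The part of these markers in the levels of the FGF genes was not tested.

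As a description, the genes most like each member were sought by Pearson correlation of log2(value + 1) over the 8 libraries, among 9010 genes with a mean value of at least 10. The libraries share their populations, so high values are common and no p is given. Fgfr1 was most like Nrbp2, Spnb2 and Mbnl2 (r = 0.999, 0.999 and 0.999), and Fgfr2 was most like P4hb, Pcsk6 and Lepre1 (r = 0.997, 0.994 and 0.994). P4hb and Lepre1 encode enzymes that modify collagen. Fgfr3 had weaker partners, Trappc6b, Rab11fip4 and Rab4b (r = 0.942, 0.912 and 0.895). Fgf2 was nearest to Gm9746, Tbx5 and Inhba (r = 0.994, 0.994 and 0.993), Fgf7 to Rnf24, Hoxa2 and Tyro3 (r = 0.998, 0.998 and 0.997) and Fgf18 to Pi16, Meox1 and Tmem2 (r = 0.993, 0.992 and 0.992). Spry1 was nearest to Nr4a2, Id3 and Ttyh2 (r = 0.997, 0.997 and 0.996) and Spry2 to Spata6, Marcks and Lama4 (r = 0.998, 0.997 and 0.996). The nearest to Spry4 were C78339, Mum1l1 and Mtmr10 (r = 0.998, 0.995 and 0.994), and to Dusp6 Wasl, Abca8b and Soat1 (r = 0.997, 0.997 and 0.997).

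Since Spry1, Spry2 and Dusp6 were low together in GFP- Pdgfra- cells, the 250 bases before their starts are shown, from RefSeq on build GRCm38.p6. Windows of 8 of the 10 genes were searched, all but Fgfr1, which had no entry under its symbol, and Spry4. The motif searched first was CCGGAA on either strand, a core bound by ETS factors, which relay ERK signals to genes. It was in the windows of 0 of the 8 genes, against 12.0% of all 32851 windows of this length. After that result, and after the windows had been read, the shorter CGGAA, which every CCGGAA contains, was searched on either strand as well. It was in 1 of the 8 genes, Dusp6, with 3 matches in capitals, and in 25.2% of all windows. Because CGGAA was picked with the windows in view, its matches in Dusp6 are no independent result, and a match or its lack is only a description of these letters. The windows lie at chr3:37639697-37639946, plus strand (Spry1), chr14:105896820-105897069, minus strand (Spry2) and chr10:99262981-99263230, plus strand (Dusp6), each 5′ to 3′.
Spry1: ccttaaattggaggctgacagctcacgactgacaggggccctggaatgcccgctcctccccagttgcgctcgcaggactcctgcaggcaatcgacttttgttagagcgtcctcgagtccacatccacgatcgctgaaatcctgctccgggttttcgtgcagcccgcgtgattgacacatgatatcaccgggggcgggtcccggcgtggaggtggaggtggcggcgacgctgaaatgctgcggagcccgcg
Spry2: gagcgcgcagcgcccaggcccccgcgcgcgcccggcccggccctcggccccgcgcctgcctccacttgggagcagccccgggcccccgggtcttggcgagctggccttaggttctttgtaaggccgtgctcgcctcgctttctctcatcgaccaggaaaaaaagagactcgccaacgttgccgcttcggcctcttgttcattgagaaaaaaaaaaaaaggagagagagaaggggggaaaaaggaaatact
Dusp6: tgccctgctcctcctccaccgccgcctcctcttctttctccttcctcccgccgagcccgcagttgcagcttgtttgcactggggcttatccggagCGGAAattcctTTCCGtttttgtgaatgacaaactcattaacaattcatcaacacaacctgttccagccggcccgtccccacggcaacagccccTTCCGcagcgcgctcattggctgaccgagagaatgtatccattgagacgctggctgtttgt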

How the data were processed

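The authors made cDNA with the Ovation RNA-Seq System V2, which does not mark strand, trimmed adaptors with cutadapt, counted with RSEM 1.17 on NCBIM37 (Ensembl 65) and applied voom. They deposited a linear normalized signal, and whole reads were recovered from 100% of the entries (tolerance 0.1). The limma 3.58.1 fit (R 4.3.3, trended eBayes, Benjamini-Hochberg adjustment over all genes) used 1 coefficient for each population, which leaves 4 residual degrees of freedom. EdgeR 4.0.16 (quasi-likelihood) on the recovered reads called 931 genes for GFP in Pdgfra+ cells, 8372 for GFP in Pdgfra- cells, 3642 for Pdgfra in GFP+ cells, 9291 for Pdgfra in GFP- cells and 6606 for the interaction. Plots used matplotlib 3.10.9, and tables used scipy 1.17.1, pandas 2.3.3 and numpy 2.4.6 under Python 3.11.15.

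Replicate numbers stand for sets of pooled littermates in the series design, and deviations from population means correlated at 0.00433 to 0.0812 between same-numbered libraries. Members and lists were chosen with earlier results of these data known, and the motif CGGAA after CCGGAA had given no match. Named are all members, their 3 nearest genes by correlation, of pathway lists at most 4 called genes per comparison by size of change, some of which are left out, and of marker lists the most abundant gene and most genes at the floor. Outside these 4, Egr1, Etv5 and Fos are named with Pdgfra in GFP- cells and Flrt1 in both comparisons with GFP- Pdgfra- cells. Those calls were not recomputed under the alternatives.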

Additional observations from a re-analysis of the deposited data

Results flagged for a closer look

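The effect of GFP differed between Pdgfra+ and Pdgfra- cells for 6 of the 10 genes, by the interaction in the limma fit. The log2 fold change with GFP in Pdgfra+ cells minus that in Pdgfra- cells was -5.31 for Fgfr1 (95% interval -5.77 to -4.85, adjusted p = 9.40e-09, limma) and -4.10 for Spry1 (-5.07 to -3.13, adjusted p = 1.46e-05). For Dusp6 it was -2.83 (-3.58 to -2.07, adjusted p = 3.94e-05, limma), for Spry2 -2.72 (-3.51 to -1.92, adjusted p = 8.49e-05) and for Spry4 -2.26 (-3.01 to -1.51, adjusted p = 2.21e-04). Fgf7 had -2.59 (adjusted p = 4.08e-04, limma), a fitted value that depends on the pseudocount because no read was counted in GFP- Pdgfra- cells, and that was -4.69 with a pseudocount of 0.1. For Spry1 the value was -3.47 without replicate 1 of GFP- Pdgfra- cells and -4.73 without replicate 2. In each of these 6 genes both libraries of GFP- Pdgfra- cells lay below the other 6 libraries. The interaction was called for 7031 of all genes. For the 7 erythroid genes it was called with a positive sign (median 6.86), opposite to these 6 genes. Erythroid and mitochondrial transcripts were highest in GFP- Pdgfra- cells, and their part was not tested.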

How the results depend on the processing

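Over the members, 50 results were recomputed under 630 alternatives, of which 593 kept direction and side of the threshold, 16 lost a call, 8 gained one and 13 turned direction. For 91 results of the pathway genes, 1083 of 1155 alternatives kept both and 72 lost the call. With GFP in Pdgfra+ cells, 849 genes were called, 532 without a mean-variance trend and 246 to 517 with 1 library left out. Of the members, 1 was called there, against 0 with a pseudocount of 0.1, 0 without the trend and 0 with the replicate block, 2 with median centring, by edgeR and by voom, and 0 to 1 with 1 library left out. With Pdgfra in GFP+ cells 3848 genes were called, and 2158 to 3047 with 1 library left out. The replicate block changed no call of a member but those of Fgf18 with GFP in Pdgfra+ cells and Fgf2 with Pdgfra in GFP+ cells.

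All differences that turned direction were uncalled. With GFP in Pdgfra+ cells and 1 library left out, the log2 fold change ran over -0.053 to 0.160 for Fgf7, -0.080 to 0.059 for Spry2 and -0.085 to 0.322 for Spry4. With GFP in Pdgfra- cells it ran over -0.097 to 0.201 for Fgfr3, with -0.402 under median centring, and -0.568 to 0.002 for Fgf18. Fgfr1 with Pdgfra in GFP+ cells ran over -0.074 to 0.097, with -0.015 under centring, and Fgfr3 with Pdgfra in GFP- cells over -0.241 to 0.647, with -0.249 under centring. The cause was not tested. Centring changed the calls with GFP in Pdgfra- cells from 4787 higher and 3740 lower to 3550 higher and 5569 lower, those with Pdgfra in GFP- cells from 5226 higher and 4250 lower to 3913 higher and 5720 lower, and those of the interaction from 3032 higher and 3999 lower to 4427 higher and 2989 lower. With 1 library left out, the lone library of a population is assumed to vary like the others. Depth limits Fgf2, Fgf18 in Pdgfra- cells and Fgf7 in GFP- Pdgfra- cells, where single reads set the value. Counting intervals and floors leave out variation from amplification.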
